A study of Homo sapiens with 12 samples.

Results

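The RBM family comprises genes whose products bind RNA through the RNA recognition motif (RRM), and its messages were followed here in HEK293 cells depleted of 1 of 3 splicing factors. Members were the protein-coding genes whose GENCODE symbol is RBM followed by a number and an optional letter, together with RBMS1, RBMS2, RBMS3, RBMX, RBMX2 and RBMXL1. RBM17, itself a target of the siRNA, RBM8A of the exon junction complex and RBM22 of the core spliceosome were left out. The rule used no measured value and found 40 genes among the 60554 genes of the count files, of which 39 passed the filter on low counts. HEK293 is a human embryonic kidney line transformed with adenovirus DNA, and the cell line field of the labels gives its derivative HEK293T at passage 10. The 4 groups of 3 libraries each received an ON-TARGETplus SMARTpool siRNA against RBM17, against U2SURP or against CHERP, or the non-targeting control siRNA number 3, whose label names no pool. All groups share the cell line and all received an siRNA. Nothing in the labels ties the 3 libraries of a group to separate cultures, so the p-values reflect variation among the 3 libraries of a group, part or all of which may be technical.

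RBM17 (also called SPF45), U2SURP (SR140) and CHERP are nuclear proteins that associate with the U2 small nuclear ribonucleoprotein, the particle that recognises the branch point upstream of the 3′ splice site. The RRM is the commonest RNA-binding fold in human proteins, and family members combine it with other domains, such as the G-patch, zinc fingers or glycine-rich tails. They act in splice site choice, m6A methylation, nuclear RNA decay, ribosome assembly and germ cell or muscle programmes. Several are known to regulate the splicing of their own messages through exons or introns that expose a transcript to nonsense-mediated decay.

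Libraries held 252505520 to 320986785 counts, and each siRNA lowered its target. RBM17 fell from 115 ± 2.73 CPM (counts scaled to a common library total; SD, n = 3) in control to 26.5 ± 0.523 CPM in its knockdown (log2 -2.12 ± 0.049 SE), U2SURP by 1.71 and CHERP by 1.77 on the log2 scale. The targets were not all unchanged in the other knockdowns. CHERP was called higher in RBM17 knockdown (from 61.3 to 73.6 CPM), and U2SURP was called higher in CHERP knockdown. Libraries were numbered consecutively within each group, and a batch of preparation therefore cannot be told apart from the siRNA. RBM17 knockdown library 2 and control library 3 had the fewest genes with a count in their groups (35648 and 36859). Without both of these libraries, 30 of the 31 members called in RBM17 knockdown kept their call, RBM26 being the exception. Defining markers of other cell types were low: 6 blood genes summed to 1.01 to 2.14 CPM per library, with HBB at 0 in every library. The summed CPM of 7 fibroblast genes ranged from 17.9 to 22.4 in control and from 10.4 to 14.9 in the knockdowns, and 7 genes of the HEK293 background reached 653 to 724 in control, 755 to 857 in RBM17 knockdown, 670.0 to 728 in U2SURP knockdown and 673 to 788 in CHERP knockdown. Within that list KRT8 rose in each knockdown, while PAX2 and NEFM rose in RBM17 knockdown and fell in the other knockdowns. The 3 endothelial genes summed to 0.371 to 0.418 CPM in control, 0.94 to 1.13 in RBM17 knockdown and 0.143 to 0.263 in the other knockdowns. The sum followed KDR, with means of 0.295 CPM in control, 0.983 in RBM17 knockdown, 0.134 in U2SURP knockdown and 0.169 in CHERP knockdown. PECAM1 was not called in any knockdown, and averaged 0.0818 CPM in control and 0.0435 in RBM17 knockdown. The part of these shifts in the results below was not tested.

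Per kilobase of annotated exon, the members spanned from abundant to nearly silent in control cells. RBMX led with 102 ± 7.39 CPM per kb (SD, n = 3), followed by RBM3 at 60.2 ± 3.30 and RBM39 at 41.0 ± 2.33. RBM25 (28.6 ± 1.13), RBM5 (28.2 ± 0.91), RBM6 (27.7 ± 0.728) and RBM10 (26.8 ± 0.486) came next, and among these 4 the library ranges of neighbours in the order overlapped. At the other end stood RBM34 (0.306 ± 0.0315), RBMS3 (0.0569 ± 0.0111), RBM24 (0.0232 ± 0.00871) and the germ cell gene RBM46 (0.0020 CPM per kb). RBM46 had 6, 0 and 1 counts in the control libraries and at most 5 counts in any knockdown library, and was not tested. The other 39 members, 36 of which averaged at least 1 CPM, are described below.

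**Figure D1:**
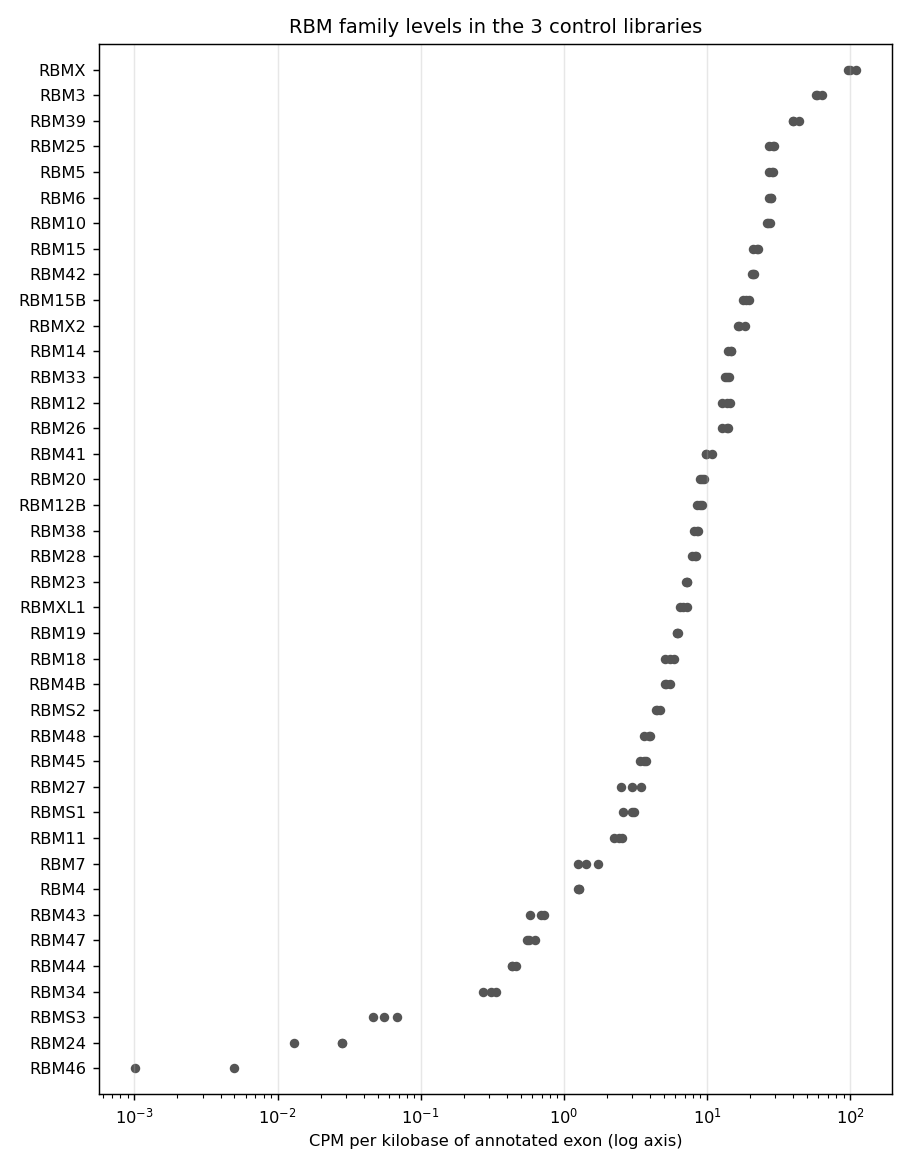
Level of each RBM family gene in the control siRNA libraries, in CPM per kb of exon on a log axis, ordered by the mean. Points are the 3 libraries; RBMX stands highest at a mean of 102 CPM per kb and RBM46 lowest, with its library at 0 counts not drawn.

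Members moved in both directions after each knockdown, and 1 of them, RBM24, moved by 2-fold or more. In RBM17 knockdown, 17 members rose, 14 fell and 8 did not pass the test (edgeR quasi-likelihood, Benjamini-Hochberg adjusted p under 0.05 over 29003 genes). The 31 called members made up 79.5% of those tested, against 54.7% of all genes (25.4% higher and 29.3% lower). Protein-coding genes averaging at least 1 CPM are the closer background, since 36 of the members reach that level, and 73.4% of them were called (46.4% higher and 27.0% lower). In U2SURP knockdown 15 members rose and 9 fell, 61.5% of those tested. All genes gave 43.3% there (21.1% higher and 22.2% lower), and the expressed protein-coding genes 64.3% (34.7% and 29.6%). In CHERP knockdown 21 members rose and 9 fell, 76.9% of those tested. There all genes gave 47.3% (22.8% higher and 24.6% lower), and the expressed protein-coding genes 68.1% (33.9% and 34.2%). The share called in either direction was near that of the expressed protein-coding genes in each knockdown. In RBM17 knockdown 43.6% of the members were higher and 35.9% lower. The shares were 38.5% and 23.1% in U2SURP knockdown, and 53.8% and 23.1% in CHERP knockdown. By direction the CHERP shares lay furthest from the expressed protein-coding genes. None of the shares is read as a result about the family. The median log2 change over the tested members was 0.05, 0.0611 and 0.239 in RBM17, U2SURP and CHERP knockdown, over the expressed protein-coding genes 0.114, 0.0313 and 0.0060, and over all genes -0.0985, -0.0247 and -0.0035. The all-gene median in RBM17 knockdown was -0.0441 with DESeq2 size factors. The 3 comparisons share the same control libraries. In bulk RNA, fewer cells that express a gene and less of its RNA per cell cannot be told apart. Annotated exons of 27 of the 40 members overlap another gene, among them RBM3, RBM10, RBM15, RBM19 and RBM12B, and since no source states whether counting used the strand, their reads may be mixed with those of the neighbour. RBM33, RBM39, RBM41, RBM42, RBMS1 and RBMX2 have no such overlap.

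**Figure D2:**
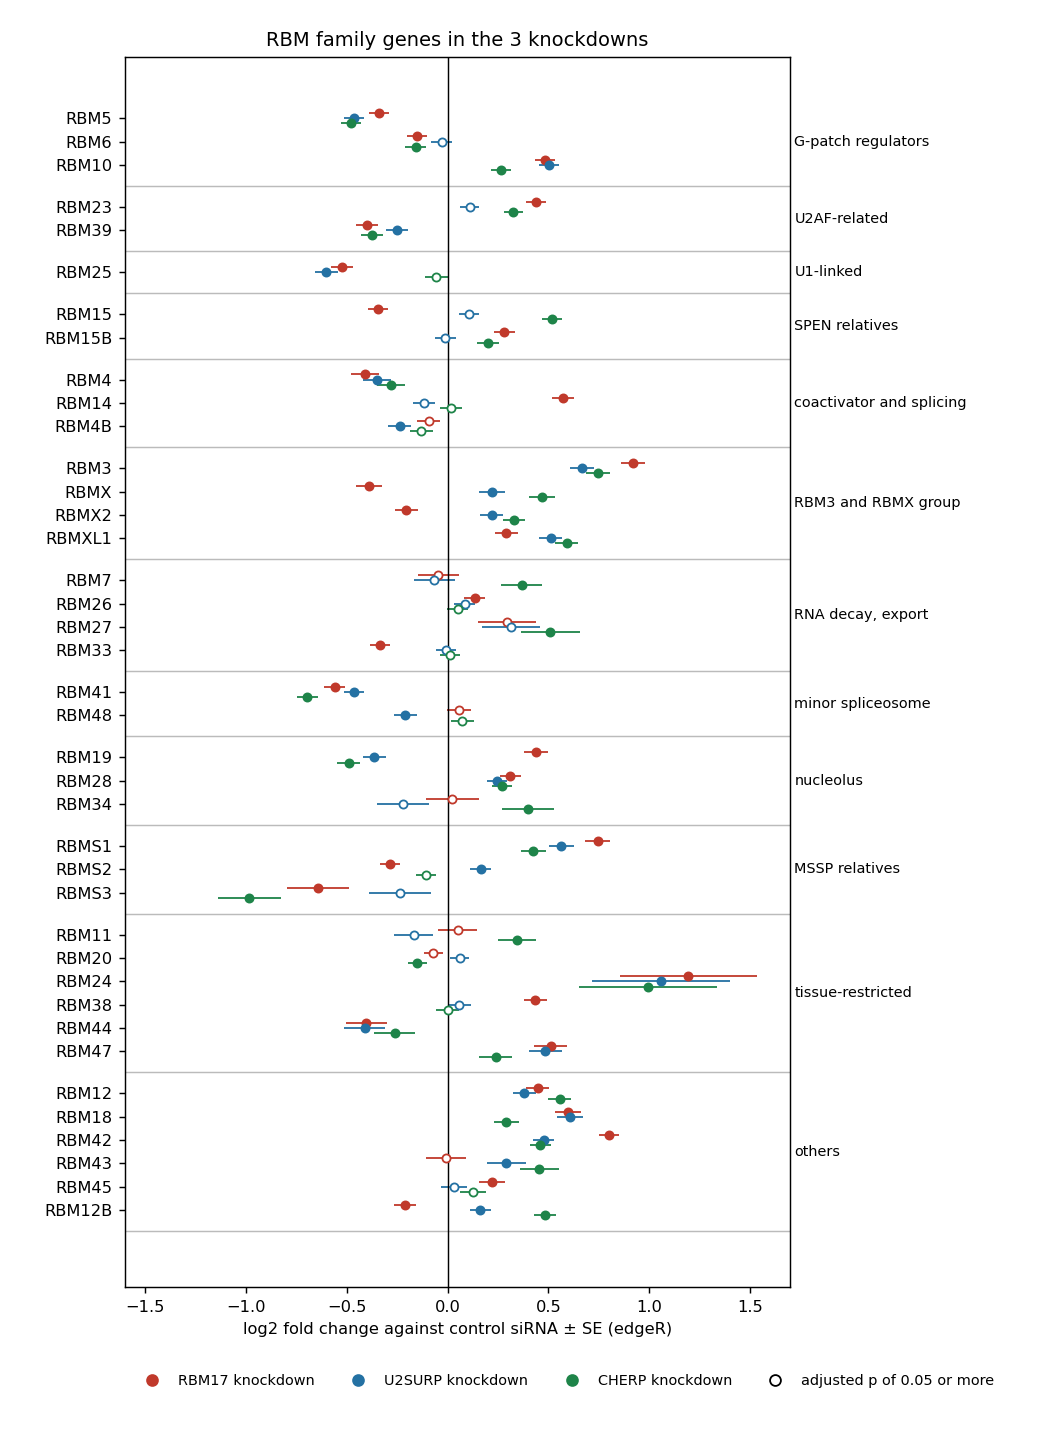
log2 fold change of the 39 tested RBM family genes against control siRNA, grouped by role, with the SE from edgeR. Colours stand for the knockdown and open circles for an adjusted p of 0.05 or more; RBM3, RBM10 and RBM42 lie to the right of 0 in each knockdown, RBM5 and RBM41 to the left, and RBM15, RBM19 and RBMX on both sides.

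RBM5, RBM6 and RBM10 are related G-patch proteins that influence exon inclusion, and RBM5 and RBM10 moved in opposite directions in the same cells. RBM10 (X chromosome), mutated in TARP syndrome and in lung adenocarcinoma, stood at 106, 102 and 104 CPM in the control libraries, 139, 149.8 and 149 CPM in RBM17 knockdown, 141, 151 and 151 CPM in U2SURP knockdown and 127, 125 and 125 CPM in CHERP knockdown. Every knockdown library lay above every control library. The rise was 0.48 ± 0.049 (adjusted p = 1.18e-08) in RBM17 knockdown, 0.50 ± 0.049 (adjusted p = 2.04e-08) in U2SURP knockdown and 0.27 ± 0.049 (adjusted p = 7.9e-05) in CHERP knockdown, and it was larger in RBM17 and U2SURP knockdown than in CHERP knockdown (direct contrasts 0.22 ± 0.049, adjusted p = 0.000632 and 0.24 ± 0.049, adjusted p = 0.000667). RBM5, which promotes skipping of exons in apoptosis genes such as FAS, measured 294, 301 and 282 CPM in the control libraries, 224, 236 and 232 CPM in RBM17 knockdown, 218, 203 and 215 CPM in U2SURP knockdown and 216, 207 and 206 CPM in CHERP knockdown. Its highest knockdown library stayed below its lowest control library, and it fell by 0.34, 0.46 and 0.48 on the log2 scale (adjusted p = 2.85e-06, 8.1e-08 and 2.62e-08). RBM6, whose gene lies next to RBM5 on chromosome 3 and shares exon bases with it, changed little. Its log2 value was -0.15 ± 0.051 (adjusted p = 0.0146) in RBM17 knockdown, -0.029 ± 0.051 (adjusted p = 0.689) in U2SURP knockdown and -0.16 ± 0.051 (adjusted p = 0.0123) in CHERP knockdown. Neither of its calls held throughout: without RBM17 knockdown library 1 the first was -0.12 (adjusted p = 0.0589), without control library 2 it was -0.14 (adjusted p = 0.0513), and with DESeq2 size factors -0.10 (adjusted p = 0.129). It was also lost in the DESeq2 Wald test and in the fit of the RBM17 knockdown and control libraries alone. Without CHERP knockdown library 2 the second was -0.14 (adjusted p = 0.0675).

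Partners of the 3′ splice site, a list of 6 genes made up of U2AF1, U2AF2, SF1, PUF60, SF3B1 and SF3B4, held 3 that rose in each knockdown (SF3B4, SF1 and PUF60) and 1 that rose in RBM17 knockdown (SF3B1, 0.17). U2AF2 fell in CHERP knockdown by 0.25 on the log2 scale, and U2AF1 by 1.28, a value that is uncertain because GRCh38 holds a near-identical copy of the gene. RBM39, which resembles the large U2AF subunit and is degraded by aryl sulfonamide drugs, fell in each knockdown: -0.40 ± 0.055 (adjusted p = 1.07e-06) in RBM17 knockdown, -0.25 ± 0.054 (adjusted p = 0.000539) in U2SURP knockdown and -0.38 ± 0.055 (adjusted p = 3.97e-06) in CHERP knockdown. Its library values were 473, 473 and 521 CPM in the control libraries, 357, 381 and 373 CPM in RBM17 knockdown, 414, 398 and 418 CPM in U2SURP knockdown and 363, 369 and 399 CPM in CHERP knockdown, with no overlap between knockdown and control. RBM23, its closest relative in the family, rose from 101, 100.3 and 101 CPM in control to 129.6, 139 and 142 CPM in RBM17 knockdown and 129, 125 and 125 CPM in CHERP knockdown (log2 0.44 ± 0.048 and 0.33 ± 0.048). In U2SURP knockdown RBM23 stood at 109, 107 and 110.4 CPM, 0.11 ± 0.048 (adjusted p = 0.0647). The related genes RBM39 and RBM23 therefore carried opposite signs in the RBM17 and CHERP knockdowns.

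RBM25, a protein with a PWI domain that contacts the U1 particle at the 5′ splice site, separated the knockdowns. It measured 324, 345 and 349 CPM in the control libraries, 229.5, 243 and 236 CPM in RBM17 knockdown, 222, 218 and 231 CPM in U2SURP knockdown and 302, 326 and 351 CPM in CHERP knockdown. The RBM17 and U2SURP libraries lay well below control, whereas those of CHERP knockdown spanned the control values. The log2 change was -0.52 ± 0.055 (adjusted p = 2.42e-08) in RBM17 knockdown and -0.60 ± 0.055 (adjusted p = 9.39e-09) in U2SURP knockdown, against -0.055 ± 0.055 (adjusted p = 0.447) in CHERP knockdown. Tested directly, RBM25 was lower than in CHERP knockdown by 0.47 in RBM17 knockdown (adjusted p = 1.59e-07) and by 0.55 in U2SURP knockdown (adjusted p = 8.3e-08).

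RBM15 and RBM15B guide the m6A writer complex to RNA, and they are related to SPEN, a repressor that binds Xist. RBM15 moved in opposite directions: 104, 97.3 and 106 CPM in the control libraries, 83.7, 77.7 and 80.2 CPM in RBM17 knockdown, 111, 112 and 106 CPM in U2SURP knockdown and 146, 148 and 144 CPM in CHERP knockdown. RBM17 knockdown libraries lay below control and CHERP knockdown libraries above it, without overlap. Its log2 change was -0.34 ± 0.05 (adjusted p = 2.49e-06) in RBM17 knockdown, 0.11 ± 0.05 (adjusted p = 0.0901) in U2SURP knockdown and 0.52 ± 0.05 (adjusted p = 7.85e-09) in CHERP knockdown, and the direct contrast of RBM17 with CHERP knockdown was -0.86 ± 0.05 (adjusted p = 1.01e-12). RBM15B rose in RBM17 knockdown, where it stood at 149, 153 and 152 CPM against 125, 119 and 130.4 CPM in control (0.28 ± 0.053, adjusted p = 7.8e-05), and in CHERP knockdown (0.20 ± 0.053, adjusted p = 0.00298). In U2SURP knockdown its value was -0.01 ± 0.053. Of the 7 genes listed as partners (METTL3, METTL14, WTAP, VIRMA, ZC3H13, CBLL1 and SPEN), 5 rose and 2 fell in RBM17 knockdown, 2 rose and 3 fell in U2SURP knockdown, and the same numbers moved in CHERP knockdown. METTL3, the catalytic subunit, fell in all 3, by 0.69, 0.84 and 0.98 on the log2 scale, and so did ZC3H13, by 0.37, 0.48 and 0.68. CBLL1 rose in all 3 (0.32, 0.31 and 0.34). SPEN rose in RBM17 knockdown (0.26) and fell in the other knockdowns (-0.40 and -0.42).

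RBM14, RBM4 and RBM4B lie side by side on chromosome 11, and RBM14 differed from its neighbours. RBM14, a coactivator needed for paraspeckles, measured 55.6, 57.8 and 58.0 CPM in the control libraries, 78.1, 87.2 and 89.3 CPM in RBM17 knockdown, 50.8, 52.4 and 54.8 CPM in U2SURP knockdown and 59.4, 57.0 and 57.2 CPM in CHERP knockdown. It rose in RBM17 knockdown (0.57 ± 0.054, adjusted p = 3.92e-09), where all 3 libraries exceeded every other library. The values for U2SURP and CHERP knockdown were -0.12 ± 0.054 (adjusted p = 0.0823) and 0.018 ± 0.054 (adjusted p = 0.813), and the direct contrasts of RBM17 knockdown with them were 0.69 ± 0.054 and 0.55 ± 0.054 (adjusted p = 4.54e-10 and 7.44e-09). RBM4, a regulator of splicing and translation, fell in all 3: 8.42, 8.29 and 8.37 CPM in the control libraries, 6.44, 5.94 and 6.48 CPM in RBM17 knockdown, 6.79, 6.43 and 6.43 CPM in U2SURP knockdown and 6.77, 6.77 and 7.10 CPM in CHERP knockdown. Its log2 changes were -0.41 ± 0.069 in RBM17 knockdown, -0.35 ± 0.069 in U2SURP knockdown and -0.28 ± 0.069 in CHERP knockdown. RBM4B stood at -0.093 ± 0.058, -0.24 ± 0.058 and -0.13 ± 0.058, of which the second passed the test (adjusted p = 0.00173). A readthrough gene that joins RBM14 and RBM4 shares 22.4% of the 50-base stretches of RBM4 transcripts, so reads of these genes may be divided between them. The readthrough gene fell by 0.43, 0.55 and 0.89. Of the paraspeckle partners tested, NONO rose in all 3 knockdowns (0.22, 0.36 and 0.53), PSPC1 in RBM17 and U2SURP knockdown (0.20 and 0.38), and SFPQ in RBM17 knockdown (0.15).

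The cold-inducible gene RBM3 showed the largest rise among members averaging at least 1 CPM in each knockdown. RBM3 encodes a small glycine-rich protein that is induced by mild cold and aids translation. Its libraries stood at 215, 220.4 and 239 CPM in the control libraries, 394, 449.6 and 431 CPM in RBM17 knockdown, 343, 368 and 359.7 CPM in U2SURP knockdown and 351, 378 and 400.3 CPM in CHERP knockdown. The lowest knockdown library was above the highest control library by a wide gap. The rise was 1.89-fold in RBM17 knockdown (0.92 ± 0.06, adjusted p = 1.47e-11), 1.59-fold in U2SURP knockdown (0.67 ± 0.06, adjusted p = 6.6e-09) and 1.68-fold in CHERP knockdown (0.74 ± 0.06, adjusted p = 5.09e-10). RBM17 knockdown exceeded U2SURP knockdown by 0.25 ± 0.06 (adjusted p = 0.00135). CIRBP, the other cold-inducible protein of this type, rose by 0.37, 0.25 and 0.17.

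RBMX, also called hnRNP G, and its autosomal retrocopy RBMXL1 behaved differently in RBM17 knockdown. RBMX (chrX:136848004-136880764, minus strand, GRCh38) measured 565, 588 and 649 CPM in the control libraries, 433, 479 and 464 CPM in RBM17 knockdown, 667, 716 and 717 CPM in U2SURP knockdown and 755, 852 and 884 CPM in CHERP knockdown. Libraries of RBM17 knockdown were the lowest and those of CHERP knockdown the highest, and no group overlapped another. The log2 change was -0.39 ± 0.064 (adjusted p = 1.46e-05) in RBM17 knockdown, 0.22 ± 0.064 (adjusted p = 0.00686) in U2SURP knockdown and 0.47 ± 0.064 (adjusted p = 1.76e-06) in CHERP knockdown. The U2SURP call was lost without control library 1, at 0.18 (adjusted p = 0.052). RBMXL1 (chr1:88979456-88992960, minus strand) rose in all 3: 33.0, 34.6 and 37.1 CPM in the control libraries, 42.3, 43.7 and 42.2 CPM in RBM17 knockdown, 46.4, 52.9 and 49.9 CPM in U2SURP knockdown and 50.4, 52.6 and 54.7 CPM in CHERP knockdown. Its changes were 0.29 ± 0.057 in RBM17 knockdown, 0.51 ± 0.057 in U2SURP knockdown and 0.59 ± 0.057 in CHERP knockdown, and in RBM17 knockdown it was thus higher than control while RBMX was lower. RBMX2, a component of the activated spliceosome on the X chromosome, had the signs of RBMX: -0.20 ± 0.056 in RBM17 knockdown, 0.22 ± 0.056 in U2SURP knockdown and 0.33 ± 0.056 in CHERP knockdown (adjusted p = 0.00359, 0.00272 and 3.24e-05). It measured 41.0, 41.6 and 46.2 CPM in the control libraries, 35.7, 37.8 and 38.4 CPM in RBM17 knockdown, 48.6, 49.3 and 52.0 CPM in U2SURP knockdown and 51.2, 55.4 and 55.3 CPM in CHERP knockdown, and the libraries of each knockdown lay outside the control range.

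RBMX and RBMXL1 are alike in sequence, so how far reads can be told apart bears on their values. In GENCODE 29 transcripts the coding sequences of 1173 and 1170 bases aligned over 1170 bases with 32 differences, 97.3% identical. Of the 50-base stretches of RBMX transcripts 15.1% occur in any other gene, and 8.932% occur in RBMXL1. For RBMXL1 these shares are 19.1% in any other gene and 10.969% in RBMX. RBMXL1 also shares 469 exon bases with KYAT3 on the same strand, where counting by strand would not separate reads. Coding bases 244 to 393 are shown, with each differing base in capitals. Among in-frame windows of 150 bases within the first 1011 coding bases, this one was chosen for having the most differences (10). It is therefore less alike than the coding sequence as a whole.
RBMX: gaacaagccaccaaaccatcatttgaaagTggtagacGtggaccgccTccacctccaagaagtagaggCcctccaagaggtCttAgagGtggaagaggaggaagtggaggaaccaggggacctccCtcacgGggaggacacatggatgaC
RBMXL1: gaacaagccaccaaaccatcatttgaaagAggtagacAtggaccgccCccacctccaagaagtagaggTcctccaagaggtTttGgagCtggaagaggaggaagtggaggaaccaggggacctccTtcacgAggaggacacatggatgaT
Reads that span such positions can in principle be assigned, and reads that lie within identical stretches cannot.

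RBM7, RBM26, RBM27 and RBM33 act in nuclear RNA decay and export, and each was called against control in 1 knockdown. RBM7, the RNA-binding subunit of the nuclear exosome targeting complex, rose in CHERP knockdown by 0.37 ± 0.1 (adjusted p = 0.00585), from 9.90, 11.3 and 13.6 to 13.1, 14.9 and 16.9 CPM, and was higher there than in RBM17 or U2SURP knockdown (direct contrasts -0.41 ± 0.1 and -0.43 ± 0.1, other knockdown minus CHERP). The CHERP and control libraries overlap, and without CHERP knockdown library 3 the value was 0.24 (adjusted p = 0.0552). RBM27, linked to MTREX-dependent decay, also rose in CHERP knockdown: 16.4, 19.6 and 22.6 CPM in the control libraries, 28.1, 23.2 and 20.4 CPM in RBM17 knockdown, 24.6, 26.8 and 21.5 CPM in U2SURP knockdown and 25.1, 27.5 and 30.7 CPM in CHERP knockdown. The test gave 0.51 ± 0.15 (adjusted p = 0.014), and 0.40 (adjusted p = 0.0677) without the same library. Of the 50-base stretches of RBM27 transcripts 44.3% recur in the overlapping gene AC091959.3, which had at most 2 counts in any library. RBM26, the paralog of RBM27, rose by 0.13 ± 0.051 (adjusted p = 0.0303) in RBM17 knockdown, and this call was lost in 6 alternatives, among them the fits without RBM17 knockdown library 2 or 3 or without control library 1 (0.12, adjusted p = 0.101, 0.14, adjusted p = 0.052 and 0.089, adjusted p = 0.188).

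RBM33 fell in RBM17 knockdown from 186, 181 and 176 to 144, 142 and 145 CPM (-0.33 ± 0.05, adjusted p = 4.29e-06), with no overlap. Its U2SURP and CHERP libraries stood at 186, 179 and 175 and 193, 182 and 174 CPM, and both differed from RBM17 knockdown in the direct test (-0.32 ± 0.05 and -0.35 ± 0.05). Of the partners in nuclear RNA decay, the helicase gene MTREX rose in all 3 (0.81, 0.47 and 0.58), while ZFC3H1 (-0.77, -0.46 and -0.50) and PABPN1 (-0.20, -0.49 and -0.54) fell in all 3. ZCCHC8, the scaffold that binds RBM7, rose in CHERP knockdown (0.14 ± 0.047, adjusted p = 0.014), and stood at -0.034 and -0.089 in RBM17 and U2SURP knockdown, below CHERP knockdown in both direct contrasts (-0.18 ± 0.047 and -0.23 ± 0.047).

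RBM41 and RBM48 are tied to the minor spliceosome, which removes a rare class of introns. RBM41, whose RRM resembles that of the U11/U12 protein RNPC3, fell in each knockdown: 60.1, 65.9 and 60.4 CPM in the control libraries, 42.0, 41.5 and 43.0 CPM in RBM17 knockdown, 44.3, 44.0 and 46.7 CPM in U2SURP knockdown and 37.2, 38.7 and 39.2 CPM in CHERP knockdown. No knockdown library reached the control range. The log2 changes were -0.56 ± 0.052 (adjusted p = 2.6e-09) in RBM17 knockdown, -0.46 ± 0.051 (adjusted p = 1.33e-07) in U2SURP knockdown and -0.69 ± 0.052 (adjusted p = 1.25e-10) in CHERP knockdown, and U2SURP knockdown stood above CHERP knockdown by 0.23 ± 0.051 (adjusted p = 0.00141). RBM48 fell in U2SURP knockdown (-0.21 ± 0.058, adjusted p = 0.00525) and stood at 0.058 and 0.073 in RBM17 and CHERP knockdown. Direct contrasts placed U2SURP knockdown below RBM17 knockdown (0.27 ± 0.058, RBM17 minus U2SURP) and below CHERP knockdown (-0.28 ± 0.058, U2SURP minus CHERP). Of 7 partner genes, RNPC3 fell in all 3 knockdowns (-1.04, -0.69 and -0.69). PDCD7, ZMAT5, ZCRB1 and SNRNP48 rose in all 3, ZCRB1 by 0.60, 0.66 and 0.71. ARMC7, the partner of RBM48, rose in RBM17 knockdown (0.36), and SNRNP35 fell in RBM17 and CHERP knockdown (-0.30 and -0.20).

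Among the nucleolar members, RBM19 split the knockdowns most widely. RBM19, a multi-RRM protein needed for ribosome assembly, measured 37.3, 36.5 and 36.6 CPM in the control libraries, 45.3, 53.6 and 50.8 CPM in RBM17 knockdown, 29.5, 27.5 and 28.8 CPM in U2SURP knockdown and 26.8, 25.5 and 26.4 CPM in CHERP knockdown. RBM17 knockdown libraries lay above every control library, and those of U2SURP and CHERP knockdown below every control library. Its log2 change was 0.44 ± 0.057 (adjusted p = 5.94e-07) in RBM17 knockdown, -0.36 ± 0.058 (adjusted p = 1.68e-05) in U2SURP knockdown and -0.49 ± 0.058 (adjusted p = 1.92e-07) in CHERP knockdown, and RBM17 knockdown exceeded the other knockdowns by 0.80 ± 0.058 and 0.93 ± 0.058 (adjusted p = 1.11e-10 and 3.75e-12). RBM28, another nucleolar RRM protein, rose in all 3 by 0.31 ± 0.05 in RBM17 knockdown, 0.24 ± 0.05 in U2SURP knockdown and 0.27 ± 0.05 in CHERP knockdown. It measured 132, 131 and 125 CPM in the control libraries, 151, 164 and 167 CPM in RBM17 knockdown, 155, 149 and 156 CPM in U2SURP knockdown and 160.1, 156 and 153 CPM in CHERP knockdown, without overlap between knockdown and control. RBM34, at 0.965, 1.04 and 0.848 CPM in control, rose in CHERP knockdown by 0.40 ± 0.13 (adjusted p = 0.0131), a call lost without CHERP knockdown library 3 (0.30, adjusted p = 0.116) or control library 3 (0.32, adjusted p = 0.0617). Transcripts of the neighbour ARID4B hold 47.1% of the 50-base stretches of RBM34.

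RBMS1, RBMS2 and RBMS3, relatives that bind AT-rich single-stranded DNA and AU-rich RNA, took 3 different courses. RBMS1 rose in each knockdown: 30.6, 35.1 and 36.3 CPM in the control libraries, 54.3, 58.4 and 58.2 CPM in RBM17 knockdown, 48.0, 51.6 and 51.3 CPM in U2SURP knockdown and 42.1, 47.1 and 47.7 CPM in CHERP knockdown. All knockdown libraries lay above all control libraries, and the rise was 0.74 ± 0.063 (adjusted p = 6.96e-10) in RBM17 knockdown, 0.56 ± 0.063 (adjusted p = 1.49e-07) in U2SURP knockdown and 0.43 ± 0.063 (adjusted p = 5.18e-06) in CHERP knockdown. RBMS2 was lower in RBM17 knockdown and higher in U2SURP knockdown: 41.5, 39.3 and 38.8 CPM in the control libraries, 32.8, 32.1 and 33.2 CPM in RBM17 knockdown, 43.4, 45.8 and 44.7 CPM in U2SURP knockdown and 38.1, 37.2 and 35.6 CPM in CHERP knockdown. Its log2 changes were -0.29 ± 0.05 (adjusted p = 3.63e-05) in RBM17 knockdown, 0.16 ± 0.05 (adjusted p = 0.0104) in U2SURP knockdown and -0.11 ± 0.05 (adjusted p = 0.0818) in CHERP knockdown, and the direct contrast of RBM17 with U2SURP knockdown was -0.45 ± 0.05 (adjusted p = 1.2e-07). The rise in U2SURP knockdown was lost without its library 2 (0.15, adjusted p = 0.0567). RBMS3, near 1 CPM in control (0.855, 1.02 and 1.26 CPM), fell to 0.723, 0.705 and 0.574 CPM in RBM17 knockdown and 0.536, 0.516 and 0.529 CPM in CHERP knockdown, -0.64 ± 0.15 (adjusted p = 0.00108) and -0.98 ± 0.16 (adjusted p = 1.35e-05). The U2SURP value for RBMS3 was -0.23 ± 0.15 (adjusted p = 0.23), and it was higher than in CHERP knockdown by 0.75 ± 0.16 (adjusted p = 0.000774).

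Members best known from other tissues were mostly expressed at low levels. RBM24, a muscle splicing factor, had 29, 13 and 24 counts in the control libraries, 67, 38 and 50 in RBM17 knockdown, 40, 71 and 38 in U2SURP knockdown and 36, 56 and 50 in CHERP knockdown. Each knockdown library held more counts than each control library, and the log2 rise was 1.19 ± 0.34 (adjusted p = 0.00466) in RBM17 knockdown, 1.06 ± 0.34 (adjusted p = 0.0143) in U2SURP knockdown and 1.00 ± 0.34 (adjusted p = 0.0192) in CHERP knockdown. It was the single member to pass 2-fold in RBM17 and in U2SURP knockdown, on few counts. Its U2SURP and CHERP calls were each lost without a single library: without U2SURP knockdown library 2 the value was 0.79 (adjusted p = 0.112) and without control library 2 0.77 (adjusted p = 0.0924), and in CHERP knockdown 0.86 (adjusted p = 0.0799) without its library 2 and 0.71 (adjusted p = 0.115) without control library 2. RBM38, a relative of RBM24 and a target of p53, rose in RBM17 knockdown from 22.7, 21.7 and 23.3 to 28.8, 31.9 and 30.9 CPM (0.43 ± 0.057, adjusted p = 5.52e-07). Its values in U2SURP and CHERP knockdown were 0.059 and 0.0012, and RBM17 knockdown exceeded both (0.38 ± 0.056 and 0.43 ± 0.056).

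RBM47, an epithelial cofactor of APOBEC1 editing, rose by 0.51 ± 0.081 in RBM17 knockdown, 0.49 ± 0.081 in U2SURP knockdown and 0.24 ± 0.081 in CHERP knockdown. It measured 4.91, 4.71 and 5.37 CPM in the control libraries, 7.23, 7.02 and 7.12 CPM in RBM17 knockdown, 6.92, 7.62 and 6.45 CPM in U2SURP knockdown and 6.35, 5.68 and 5.66 CPM in CHERP knockdown, with every knockdown library above every control library. The CHERP call was lost without CHERP knockdown library 1 (0.18, adjusted p = 0.0958), control library 1 (0.23, adjusted p = 0.058) or control library 2 (0.20, adjusted p = 0.0889). Over the 4 epithelial markers, summed CPM ran from 8.47 to 9.78 in control and from 5.11 to 8.54 in the knockdowns. CDH1 averaged 6.35 CPM in control, 6.38 in RBM17 knockdown, 3.48 in U2SURP knockdown and 3.21 in CHERP knockdown. EPCAM averaged 2.62, 1.83, 1.66 and 2.23 CPM in the same order. KRT14 was not tested, with 10, 5 and 3 counts in control. It was at 0 in every RBM17 knockdown library and in some libraries of the other knockdowns. The part of these markers in the RBM47 result was not tested. RBM44, known from germ cells, fell by 0.40, 0.41 and 0.26 on the log2 scale. It measured 2.62, 2.82 and 2.62 CPM in the control libraries, 2.18, 1.98 and 1.92 CPM in RBM17 knockdown, 2.23, 1.91 and 1.92 CPM in U2SURP knockdown and 2.17, 2.15 and 2.39 CPM in CHERP knockdown, with every knockdown library below every control library. Its CHERP call (adjusted p = 0.0368) was lost without CHERP knockdown library 1 or 2 (-0.24, adjusted p = 0.0935 and -0.23, adjusted p = 0.127) and without control library 1 or 2 (-0.28, adjusted p = 0.0591 and -0.23, adjusted p = 0.123), as well as with DESeq2 size factors (-0.24, adjusted p = 0.0572) and without the filter on low counts (-0.26, adjusted p = 0.0842). RBM11 rose in CHERP knockdown (0.34 ± 0.095, adjusted p = 0.00439, and 0.23, adjusted p = 0.0751 without its library 3). RBM20, the titin splicing factor of heart muscle, was not among the low members, with a mean of 75.1 CPM in control. It fell in CHERP knockdown (-0.15 ± 0.048, adjusted p = 0.012, and -0.13, adjusted p = 0.0574 without control library 1).

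The remaining members have less settled roles, and RBM42, RBM12 and RBM18 rose throughout. RBM42, a partner of hnRNP K, measured 46.4, 45.1 and 47.3 CPM in the control libraries, 75.1, 84.9 and 81.9 CPM in RBM17 knockdown, 64.9, 65.6 and 62.7 CPM in U2SURP knockdown and 63.2, 63.3 and 64.3 CPM in CHERP knockdown. The groups did not overlap with control, and the rise was 0.80 ± 0.051 (adjusted p = 1.02e-11) in RBM17 knockdown, 0.48 ± 0.051 (adjusted p = 8.53e-08) in U2SURP knockdown and 0.46 ± 0.051 (adjusted p = 8.17e-08) in CHERP knockdown. It was larger in RBM17 knockdown than in either other knockdown (0.32 ± 0.051 and 0.34 ± 0.051). RBM18 measured 26.4, 28.4 and 30.6 CPM in the control libraries, 42.3, 43.7 and 43.2 CPM in RBM17 knockdown, 40.8, 46.4 and 43.0 CPM in U2SURP knockdown and 32.1, 35.4 and 37.1 CPM in CHERP knockdown, and rose by 0.60 ± 0.063 in RBM17 knockdown, 0.61 ± 0.063 in U2SURP knockdown and 0.29 ± 0.063 in CHERP knockdown. No RBM18 library of a knockdown reached down to the control range. RBM12, a multi-RRM protein, measured 85.2, 92.9 and 96.8 CPM in the control libraries, 122, 125 and 128 CPM in RBM17 knockdown, 112, 125 and 121 CPM in U2SURP knockdown and 126, 139.7 and 139 CPM in CHERP knockdown, and rose by 0.45 ± 0.057 in RBM17 knockdown, 0.38 ± 0.057 in U2SURP knockdown and 0.56 ± 0.057 in CHERP knockdown. RBM12 shares 575 exon bases with CPNE1 on the same strand, where counting by strand would not separate reads. CPNE1 transcripts hold 8.05% of the 50-base stretches of RBM12. The paralog of RBM12, RBM12B, took another course: 64.8, 67.8 and 70.0 CPM in the control libraries, 61.0, 58.8 and 55.3 CPM in RBM17 knockdown, 74.1, 79.5 and 73.2 CPM in U2SURP knockdown and 90.6, 93.5 and 98.9 CPM in CHERP knockdown. RBM12B fell in RBM17 knockdown (-0.21 ± 0.054, adjusted p = 0.00193) and rose in CHERP knockdown (0.48 ± 0.054, adjusted p = 8.53e-08). Its rise in U2SURP knockdown (0.16 ± 0.054, adjusted p = 0.0165) was lost without U2SURP knockdown library 2 (0.13, adjusted p = 0.114) or control library 1 (0.13, adjusted p = 0.0849).

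RBM43 rose in U2SURP knockdown (0.29 ± 0.098, adjusted p = 0.0182) and CHERP knockdown (0.45 ± 0.098, adjusted p = 0.000434), and stood at -0.0063 in RBM17 knockdown. The U2SURP call was lost without U2SURP knockdown library 2 (0.22, adjusted p = 0.124) or control library 1 (0.20, adjusted p = 0.137). RBM45, an RRM protein found in neuronal inclusions, rose in RBM17 knockdown (0.22 ± 0.064, adjusted p = 0.00539), a call lost without RBM17 knockdown library 2 (0.16, adjusted p = 0.0671). Its values in U2SURP and CHERP knockdown were 0.032 and 0.13.

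Across the 3 comparisons with control, 10 members rose in each (RBM3, RBM10, RBM12, RBM18, RBM24, RBM28, RBM42, RBM47, RBMS1 and RBMXL1) and 5 fell in each (RBM4, RBM5, RBM39, RBM41 and RBM44). They made up 25.6% and 12.8% of the members tested, against 10.2% and 10.8% of all genes tested and 19.7% and 14.2% of the expressed protein-coding genes. Because the control libraries are shared, these counts are not independent. In some alternatives RBM24 lost its U2SURP or CHERP call, and RBM44 and RBM47 lost their CHERP calls. A further 6 members were called in opposite directions in different knockdowns (RBM12B, RBM15, RBM19, RBMS2, RBMX and RBMX2), 12 were called in 1 knockdown and 6 in 2 knockdowns with the same sign. These shares of 15.4%, 30.8% and 15.4% stand beside 12.8%, 20.3% and 26% of the expressed protein-coding genes, and 7.74%, 24.1% and 19.6% of all genes. Each tested member was called in at least 1 knockdown, as were 93.0% of the expressed protein-coding genes and 72.5% of all genes. For 8 members no call against control held in every alternative: RBM6, called in 2 knockdowns, and RBM7, RBM11, RBM20, RBM26, RBM27, RBM34 and RBM45, called in 1. None of the shares is read as particular to the family. In 5 of the 6 members with opposite calls the call below control was in RBM17 knockdown, and RBM19 was the exception. For RBMS2 the CHERP libraries also lay below every control library, without passing the test. The only RBMS2 call above control, in U2SURP knockdown, was lost without U2SURP knockdown library 2. Opposite calls against the same controls imply a difference between the knockdowns, so the direct contrasts of these 6 members are descriptions and not further evidence.

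**Figure D3:**
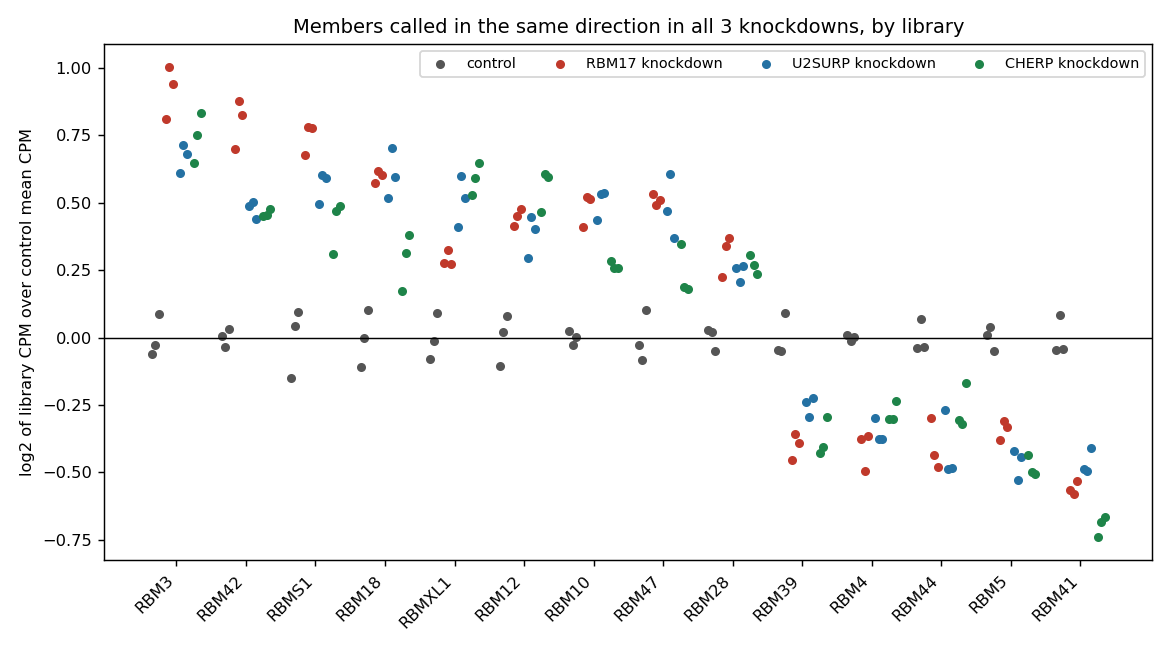
log2 of each library's CPM over the control mean for 14 of the 15 members called in the same direction in all 3 knockdowns (RBM24, which averages under 1 CPM, is not drawn). Each point is a library and colours mark the group; RBM3 and RBM42 stand highest in RBM17 knockdown and RBM41 lowest in CHERP knockdown.

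The knockdowns were also compared with each other in the same fit, in which the control libraries enter through the scaling and the estimate of spread. RBM17 knockdown exceeded U2SURP knockdown for 12 members and was below it for 11 (59.0% called, against 44.5% of all genes, 23.0% higher and 21.5% lower, and 63.2% of the expressed protein-coding genes). The count of 11 lower members fell to 7 without RBM17 knockdown library 3. Against CHERP knockdown, 11 members were higher and 12 lower in RBM17 knockdown (59.0%, against 51.6% of all genes, 26.1% and 25.5%, and 69.3% of the expressed protein-coding genes). Between U2SURP and CHERP knockdown, 7 were higher and 11 lower in U2SURP knockdown (46.2%, against 27.9% of all genes, 15.0% and 12.9%, and 41.9% of the expressed protein-coding genes). Fewer members, and fewer genes of the whole table, were called between U2SURP and CHERP knockdown than in the other pairs, and these 2 groups hold adjoining library numbers, whose part in the result was not tested. Members called in that pair included RBM25 (-0.55 ± 0.055, U2SURP minus CHERP), RBM15 (-0.41 ± 0.05) and RBMS3 (0.75 ± 0.16).

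**Figure D4:**
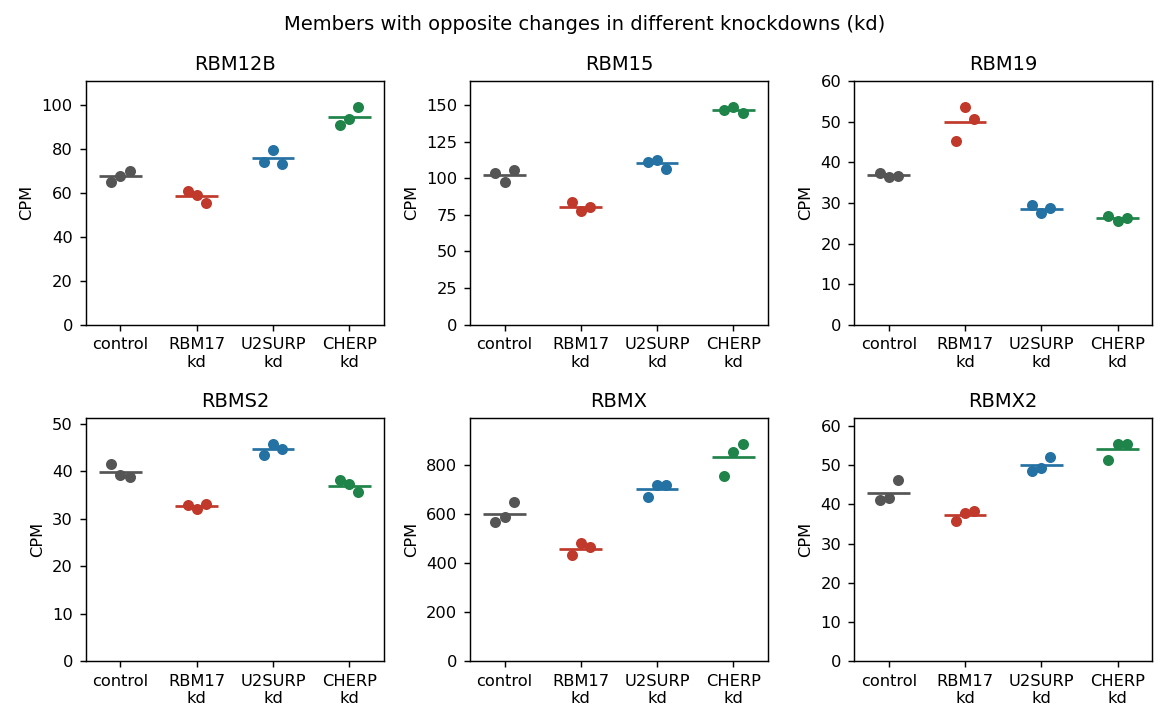
CPM per library of the 6 members called in opposite directions in different knockdowns, 1 panel per gene with its own axis from 0. Points are libraries and bars the group means; RBM19 is highest in RBM17 knockdown, whereas RBM12B, RBM15, RBMS2, RBMX and RBMX2 are lowest there.

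The upstream sequences of 5 members that stand for the patterns above are shown, 2 that rose in each knockdown (RBM3 and RBM42), 1 that fell in each (RBM5) and 2 with opposite calls (RBMX and RBM19). They are the 250 bases before the annotated start in the RefSeq promoter table (GRCh38.p14), written 5′ to 3′ on the gene's strand: RBM3 at chrX:48574234-48574483 (plus strand), RBM42 at chr19:35628786-35629035 (plus strand), RBM5 at chr3:50088669-50088918 (plus strand), RBMX at chrX:136880726-136880975 (minus strand), RBM19 at chr12:113966326-113966575 (minus strand). Capitals mark matches to any of 7 motifs, searched on both strands: the GC box GGGCGG, the CCAAT box CCAAT, the cAMP response element TGACGTCA, the E-box CACGTG, the ETS motif CCGGAAG, the TATA box TATAAA and the NRF1 motif.
RBM3: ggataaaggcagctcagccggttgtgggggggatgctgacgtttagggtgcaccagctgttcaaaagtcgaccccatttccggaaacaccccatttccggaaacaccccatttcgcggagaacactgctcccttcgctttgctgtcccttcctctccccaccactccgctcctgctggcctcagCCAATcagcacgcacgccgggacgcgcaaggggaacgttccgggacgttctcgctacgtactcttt
RBM42: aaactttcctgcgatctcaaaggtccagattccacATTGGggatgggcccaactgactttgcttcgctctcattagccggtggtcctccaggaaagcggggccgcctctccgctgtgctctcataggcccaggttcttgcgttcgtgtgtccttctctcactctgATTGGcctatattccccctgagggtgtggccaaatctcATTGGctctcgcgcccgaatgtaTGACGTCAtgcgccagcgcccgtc
RBM5: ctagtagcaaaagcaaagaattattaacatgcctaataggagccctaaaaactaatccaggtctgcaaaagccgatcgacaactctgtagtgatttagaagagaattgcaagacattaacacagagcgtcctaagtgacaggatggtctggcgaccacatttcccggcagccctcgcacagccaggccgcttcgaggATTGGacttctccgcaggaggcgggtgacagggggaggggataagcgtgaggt
RBMX: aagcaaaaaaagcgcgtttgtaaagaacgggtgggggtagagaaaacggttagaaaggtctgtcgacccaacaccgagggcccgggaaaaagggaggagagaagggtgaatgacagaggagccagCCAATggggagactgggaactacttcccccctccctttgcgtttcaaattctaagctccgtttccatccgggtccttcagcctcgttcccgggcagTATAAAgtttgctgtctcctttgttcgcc
RBM19: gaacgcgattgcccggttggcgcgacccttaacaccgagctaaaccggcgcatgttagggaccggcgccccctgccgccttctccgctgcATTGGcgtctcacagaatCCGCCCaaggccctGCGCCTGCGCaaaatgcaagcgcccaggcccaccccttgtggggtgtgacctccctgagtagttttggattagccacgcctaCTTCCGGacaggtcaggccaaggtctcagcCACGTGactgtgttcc
All 5 hold CCAAT, with 3 matches for RBM42, which also has TGACGTCA, and 1 match to TATAAA for RBMX. RBM19 has 1 match each to the GC box, the E-box, the ETS motif and the NRF1 motif. Of the 36 members in the table, 19 held CCAAT and 21 held GGGCGG, and of 35116 promoters of the same length 32.0% and 42.6% did. TGACGTCA occurred in 3 members and 1.65% of promoters, CACGTG in 3 and 6.35%, CCGGAAG in 6 and 8.52%, TATAAA in 4 and 10.7%, and the NRF1 motif in 5 and 5.08%. Members were counted per gene and the background per promoter, with no limit to expressed protein-coding genes. The shares are therefore not like for like, and no enrichment is read from them. A match describes the letters in this window and is not a bound site.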

How the data were processed

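Poly(A) RNA of 12 HEK293 libraries, 3 per siRNA group, was prepared with a stranded mRNA kit, per the labels' protocols. Each deposited file holds whole-number counts for the genes of 1 library, made by the authors. The submitters' processing notes name HISAT2 2.0.5, HTSeq, SAMtools and GRCh38 without saying how each was used. Neither the release of the gene annotation nor whether counting used the strand is stated, so reads of a gene and an antisense or overlapping partner may be mixed. Annotated exons of 27 of the 40 members overlap another gene in the files. Of 60554 genes, 56996 were named by GENCODE 29 and 3558 were not.

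edgeR 4.0.16 (R 4.3.3) was run on the counts of the 29003 genes kept by filterByExpr, with TMM scaling and robust quasi-likelihood, in 1 fit of the 4 groups. The common biological coefficient of variation was 0.0866. A gene was called at a Benjamini-Hochberg adjusted p under 0.05 over all genes, in 3 comparisons with control and 3 between knockdowns. SE was taken as the size of the log2 change over the square root of its F statistic. CPM uses the TMM-scaled library sizes, and CPM per kb divides by the annotated exon length. The script was tested on simulated data. DESeq2 1.42.0 served as an alternative. The fit without both RBM17 knockdown library 2 and control library 3 was chosen after seeing the data.

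Members and lists were chosen with earlier results of these data known. All members are accounted for by role. Library values are given in full for the 5 largest called rises and falls per knockdown among members averaging at least 1 CPM, for members with opposite calls, and for others a paragraph turns on. Partner lists hold 29 genes, of which 28 were tested: MATR3 was left out because its symbol names 2 gene IDs. Of the partners, 19 rose and 6 fell in RBM17 knockdown, 13 and 6 in U2SURP knockdown, and 13 and 9 in CHERP knockdown (89.3%, 67.9% and 78.6% called, against 73.4%, 64.3% and 68.1% of protein-coding genes averaging at least 1 CPM). Replicates of a group differed beyond sampling noise (chi-square per gene 11.7 to 51.7), and none was treated as a duplicate. Replicates were numbered in accession order, which pairs no libraries. The 50-base stretches were counted over GENCODE 29 transcripts on the transcript strand.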

Additional observations from a re-analysis of the deposited data

Results flagged for a closer look

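Among the members, 6 were called in opposite directions against control in different knockdowns. The difference between those knockdowns follows from the opposite calls, so its size is given as a description. Each of the 10 differences also passed the threshold in every alternative run, the fit of only the 2 knockdowns among them, and the members' selection on these values still applies. The calls against control were less settled. In U2SURP knockdown those of RBM12B, RBMS2 and RBMX were each lost in some fit that left out 1 library. For RBMS2 that was the only call above control. Values are log2, RBM17 knockdown minus the other knockdown. RBMX differed by -0.61 from U2SURP knockdown and by -0.86 from CHERP knockdown, and RBMX2 by -0.42 and -0.53. RBM12B differed by -0.37 and -0.69. RBM15 differed by -0.86 from CHERP knockdown, and RBMS2 by -0.45 from U2SURP knockdown. RBM19 was higher in RBM17 knockdown, by 0.80 and 0.93.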

How the results depend on the processing

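Each result was recomputed with DESeq2 size factors, with the DESeq2 Wald test, without the filter on low counts, with only the 2 groups compared, with protein-coding genes only and without each library in turn. No member's call changed direction in any of these. Of the calls against control, 28 of 31 held in every alternative in RBM17 knockdown, 19 of 24 in U2SURP knockdown and 21 of 30 in CHERP knockdown. Direct contrasts kept 15 of 23 (RBM17 with U2SURP), 18 of 23 (RBM17 with CHERP) and 16 of 18 (U2SURP with CHERP). The number of members lower in RBM17 than in U2SURP knockdown, 11, ranged from 7 to 10 when 1 library was left out, the lowest without RBM17 knockdown library 3. The other counts of called members stayed within 1.5 times. Among members that did not pass the test against control, 5 of 8, 4 of 15 and 4 of 9 changed sign in some alternative, so their direction is not settled. Of the members that did not pass, some were called in an alternative: RBM20, RBM27 and RBM4B in RBM17 knockdown, RBM14, RBM15, RBM23 and RBM27 in U2SURP knockdown, and none in CHERP knockdown. The numbers of members called in 1 or 2 knockdowns depend on these. The numbers called in all 3 depend on the lost calls of RBM24, RBM44 and RBM47. Depth limits RBM24 and RBM46, with at most 71 counts in any library. No paired analysis was possible because the labels give no replicate numbers shared between groups.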
